A study of Mus musculus with 15 samples.

Results

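The genes described here are 38 components of the PI3K-AKT-mTOR pathway, out of 51826 genes in the expression tables. They were chosen by symbol from a list of the pathway's kinases, phosphatases, adaptors and mTOR complex subunits, by a rule that uses no measured value. All 38 were found once in both tables, and all 38 passed the filter on low values in every comparison. The expression level was measured by RNA-seq of bulk mouse mammary tissue as TPM, a transcript abundance scaled for transcript length and for the total of the library, in 15 libraries from 13 mice. The strain label is FVB throughout, but the design text gives FVB/129 for the glands, and the methods give FVB or FVB/129 for the spontaneous tumors, so a strain difference within or between groups cannot be told apart from the groups. Control glands came from 4 disease-free mice (133, 392, 417_3 and 517_3) that carried the MMTV-Cre transgene alone. Of the remaining mice, 6 carried the same MMTV-Cre together with a conditional FLAG-tagged mouse Trim24 transgene behind a floxed stop cassette (Trim24COE), which Cre activates in mammary epithelium. Their tumors were 3 carcinomas (mice 89, 273_5 and 3956) and 3 metaplastic carcinosarcomas (64, 567 and 897), tumors that hold an epithelial and a mesenchymal component. Another 3 tumors (219, FVB001 and FVB002), carcinomas by label, arose spontaneously without Trim24 overexpression in mice whose genotype is given as unknown. The age of single mice is not given in the labels. Those 3 tumors were sequenced only in batch 2, together with repeat libraries of gland 133 and carcinoma 3956, and every other library belonged to batch 1.

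PI3K (phosphoinositide 3-kinase) is a lipid kinase made of a catalytic p110 and a regulatory subunit, which growth factor receptors recruit directly or through adaptors of the IRS and GAB families. Its lipid product brings PDPK1 and AKT to the membrane, and AKT then phosphorylates the FOXO transcription factors, GSK3, TSC2 and AKT1S1 (PRAS40). Loss of TSC activity leaves the GTPase RHEB free to activate mTORC1, which drives translation through S6 kinase and the eIF4E-binding proteins. In the mammary gland the pathway transmits insulin, insulin-like growth factor and ERBB family signals, and it is among the pathways most often mutated in breast cancer.

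The targeted gene was examined first. Trim24 was at 14.5 to 22.4 TPM in the 4 control glands, at 13.9 to 24.1 in the 3 carcinomas and at 10.6 to 14.5 in the 3 metaplastic carcinosarcomas labelled Trim24COE. The tumors were not higher than the glands in this RNA (log2 fold change -0.24, SE 0.26, adjusted p = 0.557 by limma). This bulk gene-level value by itself does not bear out the label, and these tumors are called labelled Trim24COE in what follows. The study reports raised FLAG and TRIM24 protein by staining of tumor sections, and raised Trim24 by qRT-PCR in tumors of these mice. Protein was not measured in these libraries. The transgene and the endogenous gene share 1 gene-level value. The spontaneous tumors had 5.34 to 10.04 TPM. Met, the receptor of hepatocyte growth factor and an upstream input of PI3K, was at 20.8 to 42.4 TPM in the glands, at 28.5, 1292 and 30.9 in the carcinomas 89, 273_5 and 3956, and at 227, 777 and 792 in the carcinosarcomas. In the spontaneous tumors 219, FVB001 and FVB002 Met was at 231.8, 22.63 and 239.52 TPM, so high Met was not limited to the labelled tumors.

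The control glands were of unlike composition. The summed level of 20 adipocyte markers was 39708 TPM in gland 133 and 48986 in gland 392, and 2161 and 2329 in glands 417_3 and 517_3. The 12 luminal epithelial markers summed to 1103 and 1711 TPM in the first pair and to 5267 and 5458 in the second. Adipocyte markers summed to 223 to 2453 TPM in the carcinomas and 213 to 374 in the carcinosarcomas labelled Trim24COE, and to 316, 70225 and 34671 in the spontaneous tumors 219, FVB001 and FVB002. The 15 macrophage markers summed to 529 to 1258 TPM in glands, 2089 to 3874 in the labelled carcinomas, 2719 to 4438 in the carcinosarcomas and 1482 to 2296 in the spontaneous tumors. No marker of the adipocyte or macrophage list was at 0 in every library of a group. In bulk tissue, fewer cells of a type and less RNA per cell cannot be told apart, and the part of tissue composition in the results that follow was not tested except where a value is given.

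All 38 members were detected in every library, and in the 13 mice the highest medians were those of Eif4ebp1 (171 TPM) and Akt1 (117 TPM) and the lowest those of Inpp4b (1.96 TPM) and Phlpp2 (2.07 TPM). Between the 2 kinds of control gland the pathway genes already differed widely. In 28 of the 38 members both fat-poor glands (417_3 and 517_3) were above both fat-rich glands (133 and 392), and in 3 members both were below. The same held for 49.3% and 26.0% of the 15876 genes at 1 TPM or more in at least 2 glands. No test was made, because these pairs were defined from the data. Irs2, a docking protein of the insulin and IGF1 receptors, averaged 125 TPM in the fat-poor and 7.21 TPM in the fat-rich glands. Sgk1, an AKT-related kinase induced by glucocorticoids and serum, averaged 332 and 33.8 TPM. Eif4ebp1, the eIF4E-binding protein that mTORC1 inactivates, went the other way, with 31.9 TPM in the fat-poor and 216 TPM in the fat-rich glands. Deptor averaged 21.0 TPM in the fat-poor and 25.7 TPM in the fat-rich glands, and the values of the 2 pairs overlapped.

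**Figure D1:**
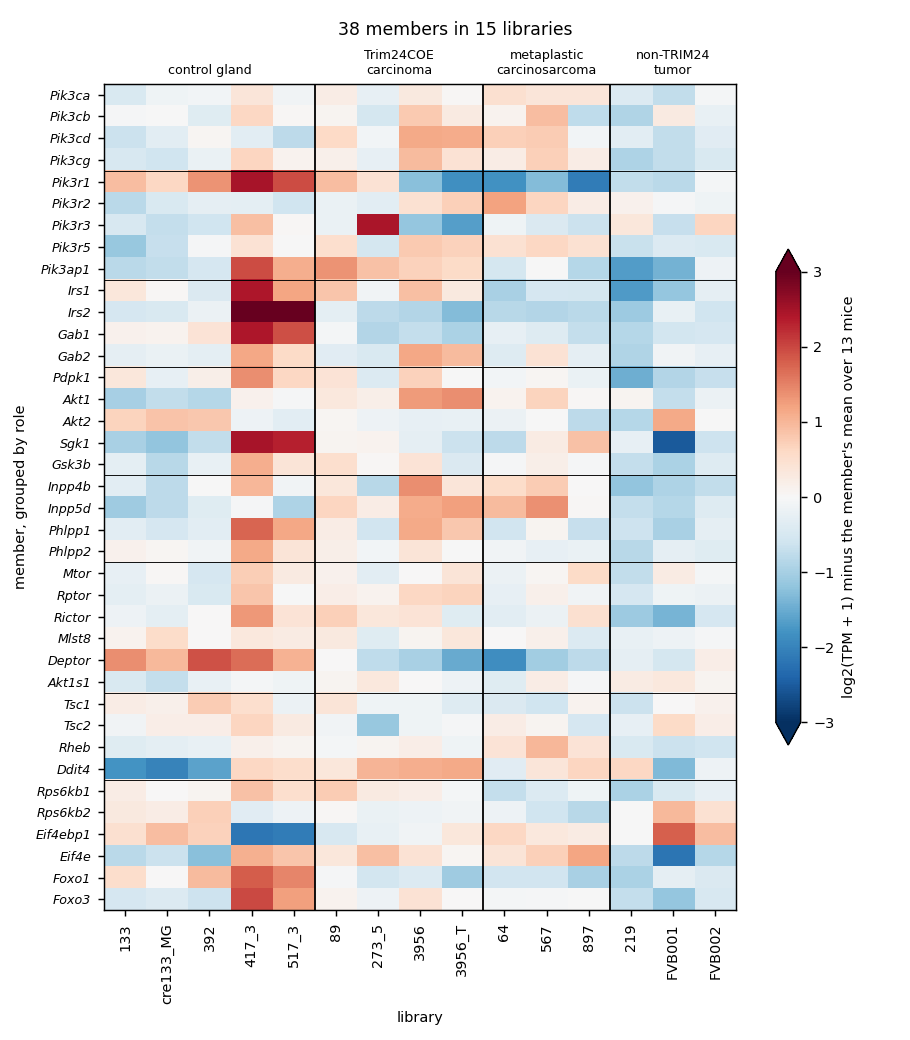
Colour shows log2(TPM + 1) of each of the 38 members (rows, grouped by role) in each of 15 libraries (columns, grouped by tissue, with the repeat libraries cre133_MG and 3956_T beside their first library), minus the member's mean over 13 mice, with values past ±3 drawn in the end colours. Glands 417_3 and 517_3 stand apart from glands 133 and 392 in Irs2, Sgk1, Ddit4 and Eif4ebp1, and Pik3r1 and Deptor are above their mean in all 4 glands.

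Comparing tumors labelled Trim24COE with control glands (6 against 4 mice) asks which members differ between tumor and undiseased gland. Of the 38 members, 4 fell (Deptor, Foxo1, Pik3r1 and Gab1) and 1 rose (Inpp5d) at an adjusted p under 0.05. Over all 15196 genes tested, 9.13% fell and 7.96% rose, so the shares of members called (4 of 38 and 1 of 38) lay near or below the shares of all genes. The median log2 fold change was -0.17 over the members and -0.04 over all genes tested, and with quantile scaling between libraries these were 0.07 and 0.06, with 2 members higher and 4 lower. Of the 38 members, 9 had a 95% interval that lay within 2-fold in either direction (Pik3ca, Pik3cb, Gsk3b, Mtor, Rptor, Rictor, Mlst8, Akt1s1 and Rheb), and for the other 29 a change of 2-fold or more lay inside or beyond the interval. Fold changes are differences of mean log2(TPM + 1), which understate the change of low genes.

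Split by tumor class, 3 members fell and 2 rose in the metaplastic carcinosarcomas against the glands (3 against 4 mice), beside 13.1% and 9.83% of 15287 genes. All 3 carcinosarcomas lay above all 4 glands in 4 members (Pik3r2, Pik3r5, Inpp5d and Rheb) and below them in 9, beside 15.4% and 21.6% of genes tested. In the carcinomas labelled Trim24COE only Deptor fell and no member rose, beside 1.92% and 1.58% of 15479 genes. Among first libraries, the carcinomas lay above all glands in 3 members and below them in 4, beside 10.7% of genes tested in each direction. Whether the classes differ is tested below by comparing them with each other, since an effect called in one class only is no such test.

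**Figure D2:**
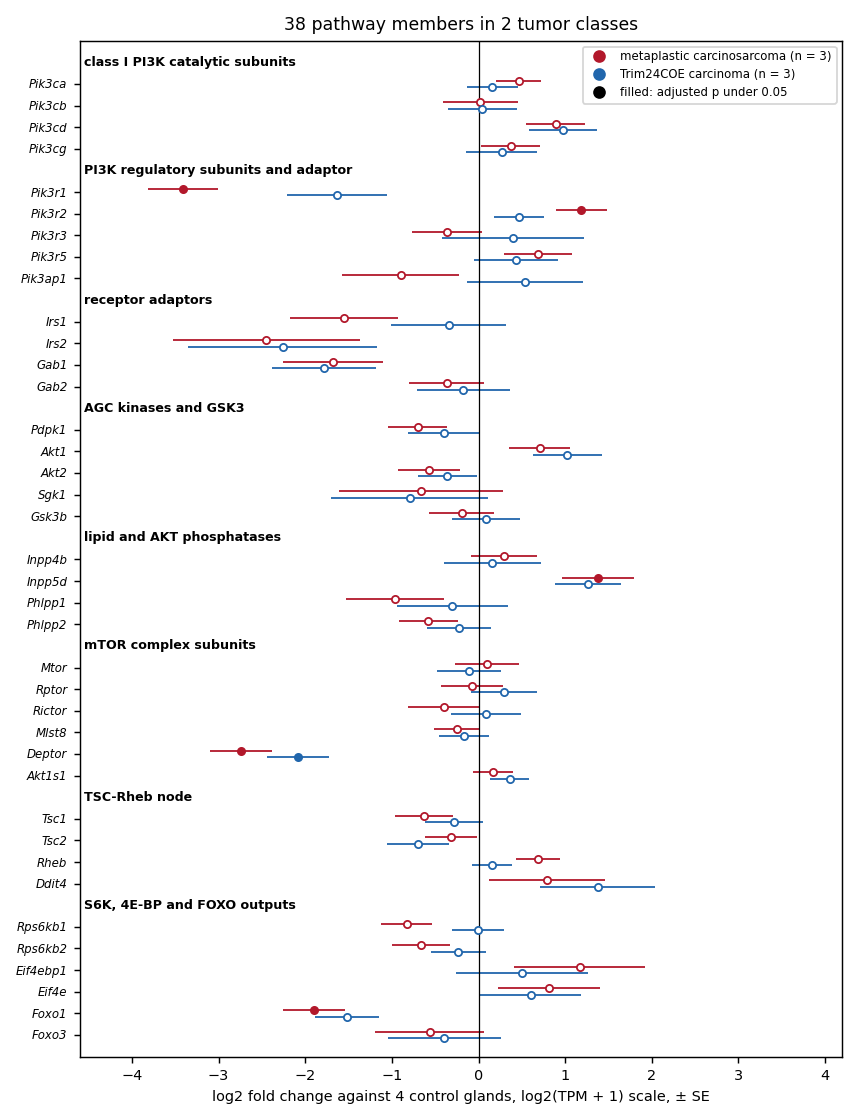
Points show the log2 fold change (log2(TPM + 1) scale, x axis) of each of the 38 members against 4 control glands, in 3 metaplastic carcinosarcomas (red) and 3 carcinomas (blue) labelled Trim24COE, bars show the SE, and filled points passed an adjusted p of 0.05. Pik3r1, Deptor and Foxo1 lie left of -1 in both classes, and Inpp5d lies right of 1 in both.

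Among the catalytic subunits no member passed the test in either class. Pik3ca, which encodes the broadly expressed p110α, was at 13.8, 18.1, 25.0 and 17.8 TPM in glands 133, 392, 417_3 and 517_3 and at 16.1 to 27.1 TPM in the 6 tumors labelled Trim24COE, so the groups overlapped. Its log2 fold change was 0.31 with a 95% interval from -0.19 to 0.81, which does not reach a 2-fold change. Pik3cd, which encodes the leukocyte-enriched p110δ, was at 3.81 to 7.66 TPM in the glands, at 11.6, 6.79 and 17.3 in the carcinomas 89, 273_5 and 3956, and at 12.7, 13.02 and 6.86 in the carcinosarcomas 64, 567 and 897. Tumors 273_5 and 897 overlapped the glands, and the difference did not pass (log2 0.93, SE 0.31, adjusted p = 0.0617 by limma). As a share of the 4 catalytic transcripts within a library, Pik3cd made up 14.1% ± 4.90 (SD, n = 4) in glands and 21.7% ± 3.22 (SD, n = 6) in the labelled tumors, while Pik3ca made up 47.9% ± 2.01 and 46.4% ± 8.84. Pik3cb (p110β) and Pik3cg (p110γ) differed by 0.03 and 0.32 on the log2 scale, with adjusted p of 0.965 and 0.513 by limma.

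Of the 5 regulatory subunits and adaptors, Pik3r1 fell, and Pik3r2 passed as higher only in the comparison of carcinosarcomas with glands. Pik3r1 encodes p85α, p55α and p50α, the main regulatory subunits that bind, stabilize and restrain p110, and Pik3r2 encodes p85β. Pik3r1 (chr13:101680563-101768217, minus strand, GRCm38) was at 54.1, 72.2, 159 and 112 TPM in glands 133, 392, 417_3 and 517_3. It was at 54.1, 38.2 and 11.1 TPM in carcinomas 89, 273_5 and 3956 and at 7.14, 10.8 and 5.75 TPM in carcinosarcomas 64, 567 and 897. Among first libraries every carcinosarcoma was below every gland and labelled carcinoma, while the repeat library of carcinoma 3956, at 7.09 TPM, was within their range. Pik3r1 fell 10.7-fold in the carcinosarcomas (log2 -3.42, SE 0.40, adjusted p = 0.00182 by limma) and 5.76-fold in the labelled tumors as a whole (log2 -2.53, SE 0.60, adjusted p = 0.0167). Against either pair of glands alone the carcinosarcomas kept this fall, with adjusted p of 0.00049 against the fat-poor and 0.0035 against the fat-rich pair, whereas for all 6 tumors the fat-rich pair alone gave log2 -1.99 and adjusted p = 0.11, and leaving out gland 417_3 gave adjusted p = 0.051. With the mean macrophage marker level in the model, Pik3r1 was at log2 0.62 (SE 1.43, adjusted p = 0.871) over all 6 tumors and at log2 -2.49 (SE 1.29, adjusted p = 0.377) in the carcinosarcomas. Those fits called only 0 of 15196 and 5 of 15287 genes, and the summed macrophage markers of labelled tumors and glands did not overlap. They therefore cannot decide whether the Pik3r1 difference depends on macrophage content. In the carcinomas, Pik3r1 did not pass (log2 -1.64, SE 0.58, adjusted p = 0.152), and carcinoma 89 (54.06 TPM) lay just under gland 133 (54.07 TPM). The repeat library of gland 133 read 43.46 TPM, below carcinoma 89.

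Pik3r2 (chr8:70768176-70776713, minus strand) was at 22.3, 32.6, 32.4 and 25.9 TPM in glands 133, 392, 417_3 and 517_3, at 34.6, 31.8 and 54.5 TPM in carcinomas 89, 273_5 and 3956, and at 93.4, 62.3 and 46.8 TPM in the carcinosarcomas. All carcinosarcomas were above all glands, and the rise was 2.27-fold (log2 1.18, SE 0.29, adjusted p = 0.025 by limma). It did not pass over all 6 tumors (log2 0.83, SE 0.30, adjusted p = 0.0781) or in the carcinomas (log2 0.47, adjusted p = 0.401). Carcinomas 89 and 3956 were also above all glands, as were spontaneous tumors 219, FVB001 and FVB002 at 43.49, 38.94 and 36.03 TPM. In the fit with a batch term the spontaneous tumors differed from glands by log2 0.17 (adjusted p = 0.769 by limma). Between carcinosarcomas and labelled carcinomas Pik3r2 was not called. Leaving out carcinosarcoma 64, carcinosarcoma 567 or gland 517_3 ended the call in the carcinosarcomas (adjusted p of 0.108, 0.0766 and 0.0598), as did the adipocyte or macrophage marker mean in the model (adjusted p of 0.089 and 0.774). The macrophage fit called only 5 of 15287 genes, so the loss there is not particular to Pik3r2. Within a library, Pik3r1 exceeded Pik3r2 by 2.21 to 4.90 times in the glands and stood at 1.56, 1.20 and 0.204 of it in carcinomas 89, 273_5 and 3956, and at 0.0765, 0.173 and 0.123 in carcinosarcomas 64, 567 and 897. The spontaneous tumors 219, FVB001 and FVB002 had ratios of 0.375, 0.399 and 0.746. Of the summed Pik3r1, Pik3r2 and Pik3r3 transcripts, Pik3r1 made up 72.4% ± 6.36 (SD, n = 4) in glands and 10.3% ± 3.61 (SD, n = 3) in carcinosarcomas. These ratios are descriptions and rest on gene-level values, in which p85α, p55α and p50α cannot be separated.

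**Figure D3:**
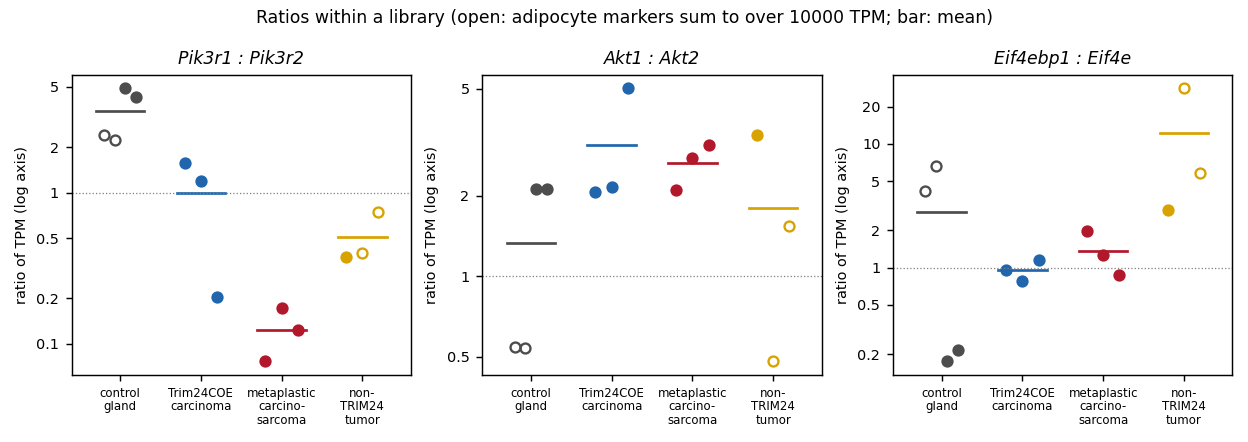
Each point is the ratio of the TPM of 2 members within the first library of 1 mouse (y axis, logarithmic), by group, bars are group means, and open points mark libraries whose adipocyte markers sum to over 10000 TPM. Pik3r1 exceeds Pik3r2 in all 4 glands and is under 0.2 of it in all 3 metaplastic carcinosarcomas, while Akt1 : Akt2 and Eif4ebp1 : Eif4e split the glands by fat content.

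The start regions of both genes are shown because the 2 regulatory subunits moved apart. Each run covers 300 bases, most of them before a transcription start in RefSeq (GRCm38.p6), written 5′ to 3′ on the gene's strand. Capitals mark matches, on either strand, to the GC box GGGCGG, the letters that Sp family factors bind. Pik3r1 has 2 entries that lie far apart within the gene, at chr13:101768168-101768467 (minus strand, upstream) and chr13:101692581-101692880 (minus strand, downstream). Pik3r2 has 1 entry, at chr8:70776663-70776962 (minus strand).
Pik3r1 upstream start: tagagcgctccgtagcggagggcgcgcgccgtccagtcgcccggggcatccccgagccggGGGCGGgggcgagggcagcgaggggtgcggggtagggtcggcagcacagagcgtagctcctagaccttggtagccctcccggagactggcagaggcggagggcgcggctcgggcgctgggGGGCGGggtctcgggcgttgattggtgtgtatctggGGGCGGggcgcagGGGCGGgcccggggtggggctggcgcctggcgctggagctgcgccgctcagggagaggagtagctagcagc
Pik3r1 downstream start: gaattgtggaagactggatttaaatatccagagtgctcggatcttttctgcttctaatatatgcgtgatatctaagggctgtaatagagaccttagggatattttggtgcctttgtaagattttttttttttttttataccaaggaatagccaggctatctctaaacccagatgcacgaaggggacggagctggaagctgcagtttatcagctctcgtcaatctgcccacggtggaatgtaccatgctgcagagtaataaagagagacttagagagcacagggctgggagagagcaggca
Pik3r2 start: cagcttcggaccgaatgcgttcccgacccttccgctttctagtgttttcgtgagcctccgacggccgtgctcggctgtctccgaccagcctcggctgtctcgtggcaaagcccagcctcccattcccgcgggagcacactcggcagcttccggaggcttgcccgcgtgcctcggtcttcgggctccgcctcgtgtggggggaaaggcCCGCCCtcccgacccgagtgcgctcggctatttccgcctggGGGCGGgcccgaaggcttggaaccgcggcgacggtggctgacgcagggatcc
The upstream Pik3r1 region held 4 GC boxes and was 75.7% G and C, the Pik3r2 region held 2 and was 69.3% G and C, and the downstream Pik3r1 region held none and was 43.7% G and C. GC boxes occurred in 35.7% of the 32851 RefSeq regions of this length searched. The gene-level TPM does not show which Pik3r1 start was used.

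The other regulatory members did not pass. Pik3r3 (p55γ) was at 37.2 TPM in carcinoma 273_5, and between 2.17 and 12.1 TPM in every other first library of the glands and labelled tumors. Pik3r5, the adaptor of p110γ, differed by 0.56 on the log2 scale (adjusted p = 0.304 by limma). Pik3ap1 (BCAP), a PI3K adaptor of B cells and macrophages, was at 2.79, 3.68, 24.7 and 13.2 TPM in the glands and at 2.68 to 16.0 TPM in the labelled tumors.

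Of the receptor adaptors, Gab1 fell. Gab1, which links MET and EGFR to PI3K, was at 11.8, 14.5, 62.0 and 43.8 TPM in glands 133, 392, 417_3 and 517_3, at 10.2, 5.35 and 6.05 TPM in the carcinomas, and at 8.78, 7.93 and 6.08 TPM in the carcinosarcomas. Every labelled tumor was below every gland, and the fall was 3.32-fold (log2 -1.73, SE 0.44, adjusted p = 0.0217 by limma). The fall was smaller against the fat-rich glands alone (log2 -0.77, adjusted p = 0.107), and leaving out gland 417_3 or gland 517_3 gave adjusted p of 0.0557 and 0.068. With the macrophage marker mean in the model it was log2 -0.07 (adjusted p = 0.984), but 0 of 15196 genes passed in that fit, so it cannot decide for Gab1. Irs2 was at 4.61 to 7.43 TPM in the 6 labelled tumors, beside 6.29 and 8.13 TPM in the fat-rich and 156 and 93.2 TPM in the fat-poor glands, so the tumors sat at the level of the fat-rich glands. Its difference over all 4 glands was log2 -2.36 (SE 0.79, adjusted p = 0.0607). Irs1 was at 1.35, 2.27 and 2.21 TPM in the carcinosarcomas and at 2.44 to 23.9 TPM in the glands (log2 -1.55, SE 0.62, adjusted p = 0.108). Gab2 differed by -0.27 on the log2 scale, with adjusted p = 0.684.

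None of the kinases downstream of PI3K passed. Akt1, the isoform that supports cell survival and growth, was at 54.6, 60.0, 120 and 106 TPM in the glands, at 136, 123 and 267 TPM in carcinomas 89, 273_5 and 3956, and at 118, 174 and 112 TPM in the carcinosarcomas. The 2 lowest tumors overlapped gland 417_3, and the difference was log2 0.87 (SE 0.31, adjusted p = 0.0784 by limma). Against the fat-rich glands alone it was log2 1.35 (adjusted p = 0.0237), and against the fat-poor glands alone log2 0.38 (adjusted p = 0.452). Akt2, the isoform that carries insulin-stimulated glucose uptake in fat and muscle, was at 100 and 111 TPM in the fat-rich glands, 56.9 and 50.5 TPM in the fat-poor glands and 36.0 to 66.0 TPM in the labelled tumors. The ratio of Akt1 to Akt2 was 0.544 and 0.541 in the fat-rich glands, 2.11 in each fat-poor gland and 2.07 to 5.03 in the labelled tumors. Pdpk1, Gsk3b and Sgk1 differed by -0.55, -0.06 and -0.73 on the log2 scale, with adjusted p of 0.243, 0.92 and 0.496.

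Of the phosphatases, Inpp5d rose. Inpp5d (chr1:87620312-87720507, plus strand) encodes SHIP1, a phosphatase of blood cells that removes the 5-phosphate from the PI3K product. It was at 4.29, 7.56, 9.91 and 4.84 TPM in glands 133, 392, 417_3 and 517_3, at 16.4, 11.98 and 23.2 TPM in the carcinomas and at 20.3, 27.7 and 10.3 TPM in the carcinosarcomas. Every labelled tumor was above every gland, with carcinosarcoma 897 nearest to them, and the rise was 2.50-fold (log2 1.32, SE 0.33, adjusted p = 0.0207 by limma) and in the carcinosarcomas alone 2.60-fold (log2 1.38, SE 0.41, adjusted p = 0.045). Macrophage markers rose beside it, 13 of 15 in the labelled tumors against glands and 12 of 15 in the carcinosarcomas. In the labelled tumors 7 of 10 pan-leukocyte and 6 of 8 neutrophil markers tested rose too. Lymphocyte markers went the other way there, with 0 of 15 higher and 4 lower (median log2 -1.08). Of all genes, 7.96% rose and 9.13% fell in the labelled tumors, and 9.83% rose in the carcinosarcomas. With the mean macrophage marker level in the model, the Inpp5d difference was log2 0.17 (SE 0.89, adjusted p = 0.949), a fit in which no gene of the 15196 passed, and the summed marker levels of the labelled tumors and glands did not overlap. The part of macrophages in the Inpp5d result was otherwise not tested. With the adipocyte marker mean in the model the Inpp5d difference was log2 1.15 (adjusted p = 0.16) over all 6 tumors and log2 1.26 (adjusted p = 0.147) in the carcinosarcomas. The call over all 6 tumors was also lost without gland 133 or gland 517_3 (adjusted p of 0.0602 and 0.0617), and that in the carcinosarcomas without any of 64, 567, 133, 392 or 517_3 (adjusted p of 0.0623 to 0.159).

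The Inpp5d start region is printed because it was the only member to rise in all the labelled tumors as a group and holds letters that match the motif of PU.1, a factor of macrophages and B cells. It lies at chr1:87620062-87620361 (plus strand), and capitals mark the motif GAGGAAGT searched on both strands.
Inpp5d start: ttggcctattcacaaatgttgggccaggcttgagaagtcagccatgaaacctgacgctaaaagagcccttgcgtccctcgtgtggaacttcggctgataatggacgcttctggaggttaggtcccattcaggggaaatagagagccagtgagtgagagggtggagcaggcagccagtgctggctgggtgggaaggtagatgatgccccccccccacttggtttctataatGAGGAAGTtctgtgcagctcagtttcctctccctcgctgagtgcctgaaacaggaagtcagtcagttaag
This motif stood in 3.20% of all RefSeq regions searched. Among the 52 regions of the 34 members with an entry it stood in 3 (5.77%), those of Inpp5d and Pik3cg. No GC box was found in the Inpp5d region. A match is a description of the letters and not a binding site, and this region was chosen for print with its match known.

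Inpp4b, a phosphatase that acts on the 3,4-bisphosphate, was among the lowest members, at 1.40 to 4.96 TPM in glands and 0.68 to 6.85 TPM in labelled tumors, with a log2 difference of 0.23 (adjusted p = 0.749 by limma). Phlpp1 and Phlpp2, which dephosphorylate AKT, were at log2 -0.63 and -0.40, with adjusted p of 0.412 and 0.345. In both, all 6 labelled tumors were below both fat-poor glands.

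Of the 6 mTOR complex subunits, Deptor fell and the other 5 did not pass. Deptor (chr15:55112317-55259271, plus strand) encodes an inhibitory subunit of both mTOR complexes. It was at 21.0, 30.4, 25.7 and 16.3 TPM in glands 133, 392, 417_3 and 517_3, at 7.43, 3.95 and 3.25 TPM in carcinomas 89, 273_5 and 3956 and at 1.29, 3.03 and 3.82 TPM in carcinosarcomas 64, 567 and 897. All 6 labelled tumors were below the lowest gland, and the 2 kinds of gland did not separate. Deptor fell 5.33-fold in the labelled tumors (log2 -2.41, SE 0.35, adjusted p = 0.00144 by limma), 6.71-fold in the carcinosarcomas (log2 -2.75, SE 0.36, adjusted p = 0.00236) and 4.23-fold in the carcinomas (log2 -2.08, SE 0.36, adjusted p = 0.0254). It was the only member called in all 3 comparisons with glands, and over all labelled tumors it passed against the fat-poor glands alone (adjusted p = 0.0114) and against the fat-rich glands alone (adjusted p = 0.0063). In the carcinomas the call was lost when any of 273_5, 3956, 392, 417_3 or 517_3 was left out, with adjusted p of 0.0536 to 0.0887. The spontaneous tumors 219, FVB001 and FVB002 had 5.90, 4.77 and 8.62 TPM, also below every gland.

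The catalytic and scaffold subunits stayed close to the glands. Mtor itself was at 6.01 to 15.5 TPM in glands and 6.94 to 13.8 TPM in labelled tumors, with a log2 difference of -0.01 and a 95% interval of -0.65 to 0.64. Rptor (raptor, of mTORC1), Rictor (of mTORC2) and Mlst8 (of both) had intervals of -0.54 to 0.76, -0.89 to 0.58 and -0.71 to 0.30. Akt1s1, which encodes PRAS40, had an interval of -0.15 to 0.68. The ratio of Deptor to Mtor was 1.48 to 5.06 in the glands and 0.165 to 0.748 in the labelled tumors.

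In the TSC-Rheb node no member passed. Rheb was at 70.0, 77.8, 101 and 96.1 TPM in the glands and at 119, 182 and 120 TPM in carcinosarcomas 64, 567 and 897, all above the glands (log2 0.68, SE 0.26, adjusted p = 0.0883 by limma). The carcinomas, at 87.3, 95.1 and 103 TPM, overlapped the glands. Tsc1 and Tsc2, which encode hamartin and tuberin, were at log2 -0.46 and -0.51 in the labelled tumors, with adjusted p of 0.285 and 0.259. Ddit4 (REDD1), a stress-induced inhibitor of mTORC1, was at 24.4 and 27.7 TPM in the fat-rich glands, 135 and 127 TPM in the fat-poor glands and 68.8 to 187 TPM in the labelled tumors (log2 1.08, SE 0.52, adjusted p = 0.171).

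Among the outputs, Foxo1 fell. Foxo1 (chr3:52268336-52353221, plus strand), a transcription factor that AKT excludes from the nucleus, was at 14.6, 20.2, 37.7 and 29.3 TPM in glands 133, 392, 417_3 and 517_3, at 9.65, 6.49 and 7.25 TPM in the carcinomas and at 6.38, 6.34 and 4.55 TPM in the carcinosarcomas. All 6 labelled tumors were below the lowest gland. The fall was 3.27-fold (log2 -1.71, SE 0.30, adjusted p = 0.00373 by limma), and 3.72-fold in the carcinosarcomas (log2 -1.90, SE 0.36, adjusted p = 0.00935). Over the labelled tumors it passed against the fat-poor glands alone (log2 -2.17, adjusted p = 0.0021) and the fat-rich glands alone (log2 -1.25, adjusted p = 0.022). In the carcinomas it did not pass (log2 -1.52, SE 0.37, adjusted p = 0.065). Adipocyte markers fell beside Foxo1, Pik3r1, Gab1 and Deptor, 9 of 19 tested, and so did 4 of 12 luminal markers in the labelled tumors and 10 of 12 in the carcinosarcomas. Of all genes, 9.13% and 13.1% fell in these comparisons. Among the glands, however, Foxo1, Pik3r1 and Gab1 averaged 33.5, 135 and 52.9 TPM in the fat-poor and 17.4, 63.1 and 13.1 TPM in the fat-rich pair. Deptor averaged 21.0 and 25.7 TPM. With the adipocyte marker mean in the model, Pik3r1 was at log2 -2.22 (adjusted p = 0.145), while Foxo1 and Deptor still passed. With the macrophage marker mean in the model neither passed, with Foxo1 at log2 -0.89 (SE 0.82, adjusted p = 0.65) and Deptor at log2 -2.04 (SE 1.00, adjusted p = 0.407). In that fit 0 of 15196 genes passed, so it cannot decide whether either fall depends on macrophage content.

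The Foxo1 start region is shown as that of the only transcription factor called. It lies at chr3:52268087-52268386 (plus strand), with GC boxes in capitals, of which the first pair read CCGCCC on this strand and the next 2 overlap by a base.
Foxo1 start: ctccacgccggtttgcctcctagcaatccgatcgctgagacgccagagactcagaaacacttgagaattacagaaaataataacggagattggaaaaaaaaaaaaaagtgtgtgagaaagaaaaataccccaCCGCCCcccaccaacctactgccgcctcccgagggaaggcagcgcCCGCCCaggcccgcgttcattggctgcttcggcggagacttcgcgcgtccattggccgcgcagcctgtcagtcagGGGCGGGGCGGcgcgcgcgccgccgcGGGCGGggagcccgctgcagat
The region held 5 GC boxes, and neither it nor the Pik3r1, Pik3r2 and Inpp5d regions held the FOXO motif GTAAACA on either strand, which 3.65% of all regions hold. Among members, those of Akt1 and Pik3cg did.

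The other outputs did not pass. Foxo3 was at 14.2 to 21.9 TPM in the 6 labelled tumors, between the fat-rich glands (10.88 and 10.04 TPM) and the fat-poor glands (65.6 and 38.5 TPM). Rps6kb1, the S6 kinase gene, was at 8.65, 10.9 and 13.6 TPM in the carcinosarcomas, below all 4 glands at 15.8 to 27.9 TPM (log2 -0.83, SE 0.29, adjusted p = 0.0739 by limma), and at 17.0 to 25.8 TPM in the carcinomas. Eif4ebp1 was at 103 to 219 TPM in the labelled tumors, above both fat-poor glands, and carcinosarcoma 64 (219 TPM) was also above fat-rich gland 133 (201 TPM). Eif4e, the cap-binding protein, was at 48.2, 34.9, 178 and 150 TPM in the glands and 107 to 195 TPM in the labelled tumors. The ratio of Eif4ebp1 to Eif4e was 4.17 and 6.62 in the fat-rich glands, 0.175 and 0.218 in the fat-poor glands and 0.774 to 1.97 in the labelled tumors.

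**Figure D4:**
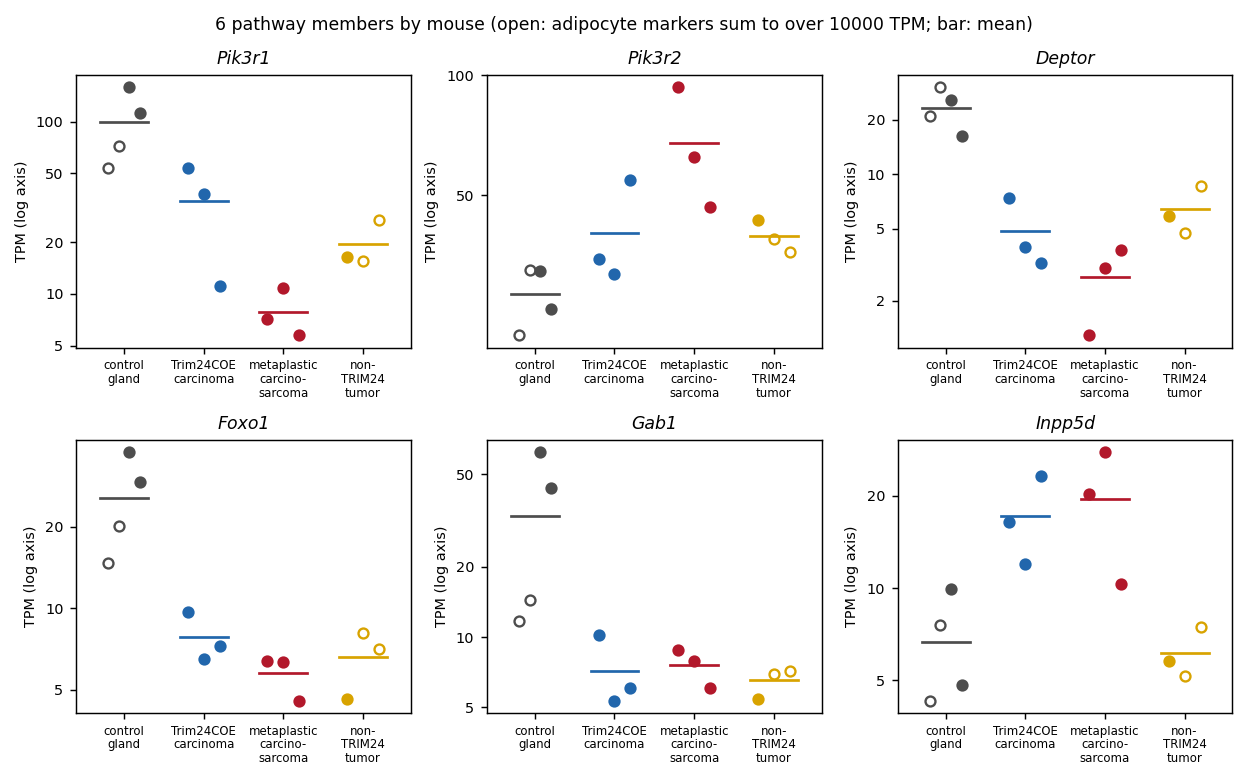
Each point is the TPM (logarithmic y axis) of a member in the first library of 1 of 13 mice, by group, bars are group means, and open points mark libraries whose adipocyte markers sum to over 10000 TPM. In Pik3r1, Deptor, Foxo1 and Gab1 the labelled tumors lie at or below the lowest gland, and in Inpp5d they lie above the highest gland, while the spontaneous tumors lie at 5.17 to 7.48 TPM.

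The metaplastic carcinosarcomas and carcinomas labelled Trim24COE were compared directly, 3 against 3 mice. No member passed by limma, beside 0.113% of 14193 genes called higher and 0.585% called lower. At an unadjusted p under 0.05, 1 member was higher in the carcinosarcomas (Eif4ebp1) and 4 were lower (Pik3ap1, Irs1, Pik3r1 and Rps6kb1), beside 5.11% and 9.87% of genes. The groups did not overlap in 3 members that were higher and 6 that were lower, beside 7.33% and 14.4% of genes. Pik3ap1 had the lowest p, with 3.59, 5.59 and 2.68 TPM in carcinosarcomas 64, 567 and 897 and 16.0, 11.2 and 9.64 TPM in carcinomas 89, 273_5 and 3956 (log2 -1.43, SE 0.34, adjusted p = 0.156). The Pik3r1 difference was log2 -1.78 with a 95% interval of -3.14 to -0.42 (adjusted p = 0.242), and without carcinoma 3956, whose level of 11.1 TPM was nearest to the carcinosarcomas, it was log2 -2.42 (adjusted p = 0.0329). Tumors 89 and 3956, carcinomas by label, were read as carcinosarcoma in another of the study's pathology readings, so the class of these tumors is not settled. The study's list of tumors also holds a class call based on RNA-seq, so the class labels may not be independent of expression. For 11 of 38 members the interval lay within 2-fold.

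In the spontaneous tumors no member passed against the glands (3 against 4 mice, all 15 libraries in 1 limma fit with a batch term and the libraries of a mouse as a block), beside 0.203% of 16775 genes called higher and 0.507% called lower. Without adjustment 1 member was higher (Akt1s1) and 10 were lower at p under 0.05, beside 4.51% and 14.8% of genes. Batch and group are nearly confounded here, because batch 2 held all 3 spontaneous tumors, and the batch term rests on the repeat libraries of 2 mice. Gab1 was at 5.46, 6.96 and 7.16 TPM in tumors 219, FVB001 and FVB002, below every gland (log2 -1.72, SE 0.50, adjusted p = 0.119). Foxo1 was at 4.63, 8.12 and 7.08 TPM (log2 -1.16, SE 0.34, adjusted p = 0.121), Pik3r1 at 16.3, 15.6 and 26.9 TPM (log2 -1.73, SE 0.52, adjusted p = 0.124) and Deptor at log2 -1.22 (SE 0.37, adjusted p = 0.124). The glands are the same as in the comparison with the labelled tumors. Pdpk1, the kinase that activates AKT, was at 2.33, 4.05 and 4.76 TPM, beside 9.47 to 23.3 TPM in the glands (95% interval of the log2 difference -1.79 to -0.22, adjusted p = 0.174). The median was log2 -0.47 over members and -0.27 over all genes tested.

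Set against the spontaneous tumors, the metaplastic carcinosarcomas had 1 member higher and 1 lower, beside 3.24% and 1.52% of genes. Inpp5d was at 5.76, 5.17 and 7.48 TPM in the spontaneous tumors and was 3.10-fold higher in the carcinosarcomas (log2 1.63, SE 0.41, adjusted p = 0.0405 by limma). Deptor was 2.89-fold lower (log2 -1.53, SE 0.40, adjusted p = 0.0446). Without the batch term 3 members were higher and 0 lower, beside 1628 of 16775 genes, so the Deptor call depended on that term. All 15 macrophage markers were higher in the carcinosarcomas here, of which 3 passed, and with their mean in the model Inpp5d was at log2 0.85 (adjusted p = 0.622) and Deptor at log2 -1.72 (adjusted p = 0.386). In that fit 0 of 16775 genes passed, so it cannot decide for Inpp5d or Deptor. Leaving out any of the 6 mice except carcinosarcoma 897 ended the Inpp5d call (adjusted p of 0.0704 to 0.146), and leaving out any of the 6 ended that of Deptor (adjusted p of 0.0538 to 0.167). Rheb (log2 1.04, adjusted p = 0.0678), Pik3r2 (log2 1.01, adjusted p = 0.0696) and Eif4e (log2 1.91, adjusted p = 0.0958) followed. In the carcinomas labelled Trim24COE against the spontaneous tumors no member passed, beside 0% of genes called higher and 0.0298% called lower. At an unadjusted p under 0.05, 6 were higher and 1 lower, beside 14.1% and 3.54% of genes, and Inpp5d had the lowest p (log2 1.51, SE 0.40, adjusted p = 0.168). Macrophage markers were higher here too in 14 of 15, of which 5 had an unadjusted p under 0.05, and none passed.

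**Figure D5:**
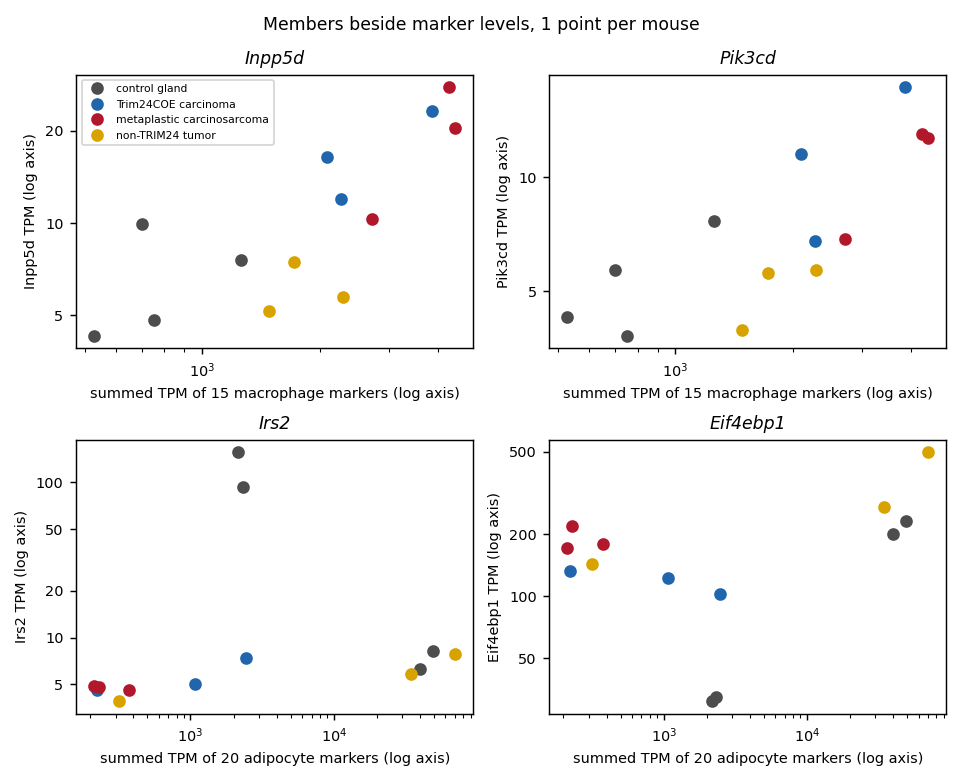
Each point is 1 mouse (first library), with the summed TPM of 15 macrophage or 20 adipocyte markers on the x axis and the TPM of a member on the y axis, both logarithmic. Inpp5d and Pik3cd are highest in tumors 64, 567 and 3956, which have the most macrophage marker RNA. Below these the order is not kept for Inpp5d, since carcinoma 89 has 2089 TPM of markers and Inpp5d at 16.39 TPM, and spontaneous tumor 219 has 2296 and 5.76 TPM. Irs2 is over 90 TPM only in the 2 glands with 2161 and 2329 TPM of adipocyte markers.

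Genes around the 38 members were described by lists of the pathway's inputs and outputs, whose counts are to be read beside the 7.96% of all genes that rose and 9.13% that fell in the tumors labelled Trim24COE, and the 9.83% and 13.1% in the carcinosarcomas. Of 21 upstream receptors tested, 2 rose and 5 fell in the tumors labelled Trim24COE (median log2 -0.43), led by Fgfr2 (log2 -3.84, SE 0.38, adjusted p = 0.000275 by limma) and Csf1r (log2 2.13, SE 0.43, adjusted p = 0.00805), the receptor of macrophage colony-stimulating factor and itself in the macrophage list. The epithelial receptor Kit fell by 2.94 on the log2 scale, and Kdr, the endothelial VEGF receptor, by 1.46. In the carcinosarcomas 5 rose and 5 fell, and Met rose 18.4-fold (log2 4.2, SE 0.48, adjusted p = 0.00173), while Erbb3, a direct recruiter of PI3K, fell by 3.67 on the log2 scale (adjusted p = 0.00223). Met was also at 231.8 and 239.52 TPM in spontaneous tumors 219 and FVB002, and at 22.63 TPM in FVB001. Of 19 ligands, 2 rose and 3 fell in the labelled tumors, among them Fgf1, which fell by 3.28, and Pdgfa, which rose by log2 1.97 (adjusted p = 0.0365).

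Of 38 metabolic genes that mTORC1 induces through HIF1A, SREBP and ATF4, 4 rose and 2 fell in the labelled tumors, beside 7.96% and 9.13% of all genes (median log2 0.28, beside -0.04 over all genes). The genes that rose were the glycolytic enzymes Pkm (log2 2.45, SE 0.27, adjusted p = 0.00041 by limma), Pgk1 (log2 2.56, SE 0.31, adjusted p = 0.000645), Eno1 (log2 1.43, SE 0.30, adjusted p = 0.0101) and Ldha (log2 1.01, SE 0.23, adjusted p = 0.0133). Those that fell were Hmgcs1, of sterol synthesis, at log2 -1.18 and Insig1, a sterol sensor, at log2 -1.48. Of 19 genes that FOXO factors induce, 4 fell and none rose, beside 9.13% and 7.96% of all genes (median log2 -0.84), namely Txnip (log2 -3.43, SE 0.38, adjusted p = 0.00041), Pink1 (log2 -1.83), Cat (log2 -1.58) and Bcl6 (log2 -1.24). Irs2 belongs to both this list and the members. In the carcinosarcomas 6 of 19 fell, beside 13.1% of all genes, the same 4 and Fbxo32 (log2 -1.35) and Insr (log2 -0.91). Eno1, Ldha, Cat and Insr were named after their values were seen, to complete these counts.

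The remaining lists are given beside the same 7.96% and 9.13% of all genes. Of 28 amino acid and energy sensing genes tested, 1 rose, the AMPK subunit Prkag1 (log2 0.77, adjusted p = 0.0241 by limma), and 1 fell, the AMPK catalytic subunit Prkaa2 (log2 -1.88, adjusted p = 0.00424). Of 24 other phosphoinositide and mTORC2 genes, 3 fell and none rose, namely Tbc1d4, an AKT substrate in glucose transporter traffic (log2 -1.66), Pik3c2b, a class II PI3K (log2 -1.41), and the 5-phosphatase Inpp5k (log2 -0.98). Of 17 translation genes only Eef2k, the kinase of elongation factor 2, fell (log2 -0.94, adjusted p = 0.022).

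The repeat libraries show how far these values differed between 2 libraries of a mouse, 1 in each batch. Whether both came from the same RNA or piece of tissue is not given, so tissue, batch and library preparation cannot be told apart. Between the first and repeat library of gland 133, the members differed by a median of 0.22 on the log2 scale and by at most 0.59. In carcinoma 3956 the median was 0.33 and the largest difference was 1.04, in Inpp4b (6.85 and 2.83 TPM). Foxo1 read 7.25 and 4.23 TPM and Deptor 3.25 and 1.92 TPM in that tumor.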

How the data were processed

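RNA-seq was measured in bulk mammary tissue of 13 mice (15 libraries). According to the study's methods the authors trimmed reads, aligned them with STAR within RSEM to the GENCODE mouse annotation and deposited gene-level TPM in a table for each batch, with GRCm38 (mm10) gene models. The submitters' processing notes also name TopHat, Cufflinks, DESeq and edgeR, with no role given, and the extraction kit differs between labels and methods. TPM keeps no depth, so the depth and counting precision of a library are unknown, and transcripts of a gene are pooled. Groups came from the labels. The members and lists were chosen with earlier results of these data known. Nothing in the labels says more about how replicates were taken than that they are separate mice.

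Values were analysed as log2(TPM + 1) with limma 3.58.1 in R 4.3.3 (trended empirical Bayes), with Benjamini-Hochberg adjustment over all genes that reached 1 TPM in a number of libraries equal to the mice of the smaller group, and a threshold of 0.05. Comparisons within batch 1 used the libraries of the groups compared, the first library of each mouse. For the spontaneous tumors, the 15 libraries were fitted together, with batch as a term and the mouse as a block (consensus correlation 0.951). The fat-rich and fat-poor glands were defined after the values were seen, as were the fits with either pair alone. Every member was named, and of each other list up to 4 genes that passed, by adjusted p. The script was tested on simulated data. Alternatives were another pseudocount, no filter, scaling, marker covariates, other sample sets and each mouse left out. Python 3.11.15 with pandas 2.3.3 and matplotlib 3.10.9 was used for summaries and plots. Promoter sequences came from RefSeq (GRCm38.p6), with 34 of 38 members matched. FOXO, ETS/PU.1, GC box and E-box (CACGTG) motifs were searched on both strands in 32851 regions, and the E-box was in those of 6 members and 7.15% of all.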

Additional observations from a re-analysis of the deposited data

Results flagged for a closer look

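Single tumors stood apart from the other 5 labelled Trim24COE in 5 members. Carcinoma 273_5 was the lowest in Pik3ca (16.05 TPM) and Pik3r5 (2.72 TPM) and the highest in Pik3r3 (37.16 TPM), carcinoma 89 was the highest in Irs2 (7.43 TPM), and carcinosarcoma 897 was the lowest in Akt2 (36.04 TPM). These are 5 of 76 groups of values examined, and chance alone gives about 1 in 20.

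Pik3ap1 lay on opposite sides of the mean of the glands in the tumor classes. All 3 metaplastic carcinosarcomas were below it (mean log2 difference -0.90) and all 3 carcinomas labelled Trim24COE were above it (mean 0.54). The difference between the classes did not pass (log2 -1.43, adjusted p = 0.156 by limma), and Pik3ap1 ranged from 2.79 to 24.7 TPM among the glands.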

How the results depend on the processing

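Of 928 values of single members recomputed under alternatives, 819 kept their direction and side of the threshold, 62 lost the call, 35 gained one and 12 reversed. All 12 reversals came with the macrophage marker mean as a covariate, where only 0 to 5 of all genes tested passed. They were Pik3r2 (-0.53), Irs2 (1.56), Pik3cd (-0.58) and Pik3r1 (0.62) in all labelled tumors against glands, Rps6kb1 (0.33), Gab1 (0.94), Pik3cd (-0.70) and Irs1 (2.25) in the carcinosarcomas, Gab1 (0.25), Pik3cd (-0.49) and Pik3r1 (0.70) in the carcinomas, and Pik3cd (-0.13) in carcinosarcomas against spontaneous tumors, where the cause was not tested. The number of members called in all labelled tumors (5, beside 2597 of 15196 genes) was 0 with the macrophage covariate. It was 8 (1 higher, 7 lower) with glands 417_3 and 517_3 alone, beside 2653 of 16351 genes. With 1 mouse left out it was 3 to 7 (3 without gland 417_3 or 517_3). In the carcinosarcomas (5, beside 3511 of 15287 genes) it was 3 with no filter (1623 of 39123) and 8 with median-ratio scaling (4142 of 15273). It was 14 (1 higher, 13 lower) with the adipocyte covariate, beside 4736 of 15287 genes, and 0 with the macrophage covariate. With glands 417_3 and 517_3 alone it was 14 (2 higher, 12 lower), beside 5837 of 15538 genes. With glands 133 and 392 alone it was 9 (4 higher, 5 lower), beside 5048 of 15815 genes. With 1 mouse left out it was 3 to 5 (3 without 64, 567 or 517_3). In the carcinomas (1, beside 542 of 15479 genes) it was 0 with no filter or the macrophage covariate. It was 2 with quantile scaling (649 of 15480 genes), median-ratio scaling (733 of 15452) or all batch 1 groups fitted together (1170 of 16050). With the adipocyte covariate it was 4 (0 higher, 4 lower), beside 654 of 15479 genes. With glands 417_3 and 517_3 alone it was 5 (1 higher, 4 lower), beside 1224 of 15756 genes. With glands 133 and 392 alone it was 4 (3 higher, 1 lower), beside 1255 of 16069 genes. It was 0 to 2 with 1 mouse left out. Between the tumor classes it was 0 to 1 with 1 mouse left out (1 without carcinoma 3956, beside 293 of 14941 genes). In carcinosarcomas against spontaneous tumors (2, beside 799 of 16775 genes) it was 0 with no filter, either covariate or libraries taken as separate. It was 0 to 1 with 1 mouse left out. With no batch term it was 3 (3 higher, 0 lower), beside 1628 of 16775 genes, so Deptor was not called there. Quantile scaling gave 3 higher and 3 lower in the carcinosarcomas in place of 2 and 3, and turned the median of the members positive there (0.02). Fits with 1 pair of glands were added after the data were seen. No paired analysis was possible because the groups share no replicate numbers. Limits are the 3 to 4 mice of a group, unknown depth, glands of unlike fat content, and a batch that holds all the spontaneous tumors.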
